A study of Mus musculus with 6 samples.

Results

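Peritoneal macrophages that had been made tolerant to lipopolysaccharide (LPS) and then given LPS again were compared with untreated peritoneal macrophages, both from wild-type (WT) C57Bl/6 mice. Tolerization consisted of 15 h in 10 ng/ml LPS, a wash and a rest of 2 h, after which 1000 ng/ml LPS was added for 4 h, while the naive cells had no LPS. Each group was 1 library of poly-A RNA, so the difference between them has no replicate check and no test was made. The labels do not say whether a library held cells of 1 mouse or of several, although the series describes triplicates. The comparison covered the 10396 of 23699 rows that were marked OK in both libraries, carried a gene symbol listed once, and reached at least 2 FPKM (fragments per kilobase of transcript, scaled to all mapped fragments) in at least 1 of them. Of the 22852 rows that met the first pair of conditions, 12456 stayed under 2 FPKM in both libraries. Values are set beside those of the WT library given 1000 ng/ml LPS for 4 h with no earlier LPS, and of the 3 libraries with the same treatments from mice that carry a knockout (KO) of the X-linked microRNA genes miR-221 and miR-222 (genotype -/Y). All cells were kept in DMEM with 10% FBS.

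LPS, from the outer membrane of Gram-negative bacteria, is sensed by macrophages through CD14, MD-2 and Toll-like receptor 4. The adaptors MyD88 and TRIF then activate NF-kappaB, AP-1 and interferon regulatory factors, and secreted interferon drives a further set of genes through factors that include STAT2 and IRF9. In endotoxin tolerance, a second dose of LPS draws less of some cytokines from macrophages, while other genes remain inducible. Restimulated tolerized cells set against naive cells show what the whole sequence of exposures left different, which includes both the first and the second dose.

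Ratios are given as log2((FPKM + 1)/(FPKM + 1)), tolerized to naive, a scale that understates differences of genes with low values. Of the 10396 genes, 840 (8.08%) were at least 2-fold higher in the tolerized library, 1742 (16.8%) were at least 2-fold lower, and 7814 lay within 2-fold. Small RNA genes made up 13 of the higher and 7 of the lower genes, and poly-A libraries do not measure them well. Without them the distribution was longer on the higher side: 25 genes were at least 64-fold higher and 1 was at least 64-fold lower, and 10 were at least 256-fold higher while none was 256-fold lower. The middle of the distribution lay below 0, with a median of -0.24 over all genes and quartiles of -0.73 and 0.22. When the libraries were rescaled so that this median was about 0, 1141 genes were higher and 1249 were lower, so that 47.7% of the 2-fold differences were toward higher values, against 32.5% as deposited. Medians of lists for this ratio are therefore also given relative to the all-gene median. In cells measured in bulk, fewer cells of a type and less RNA per cell cannot be told apart.

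**Figure D1:**
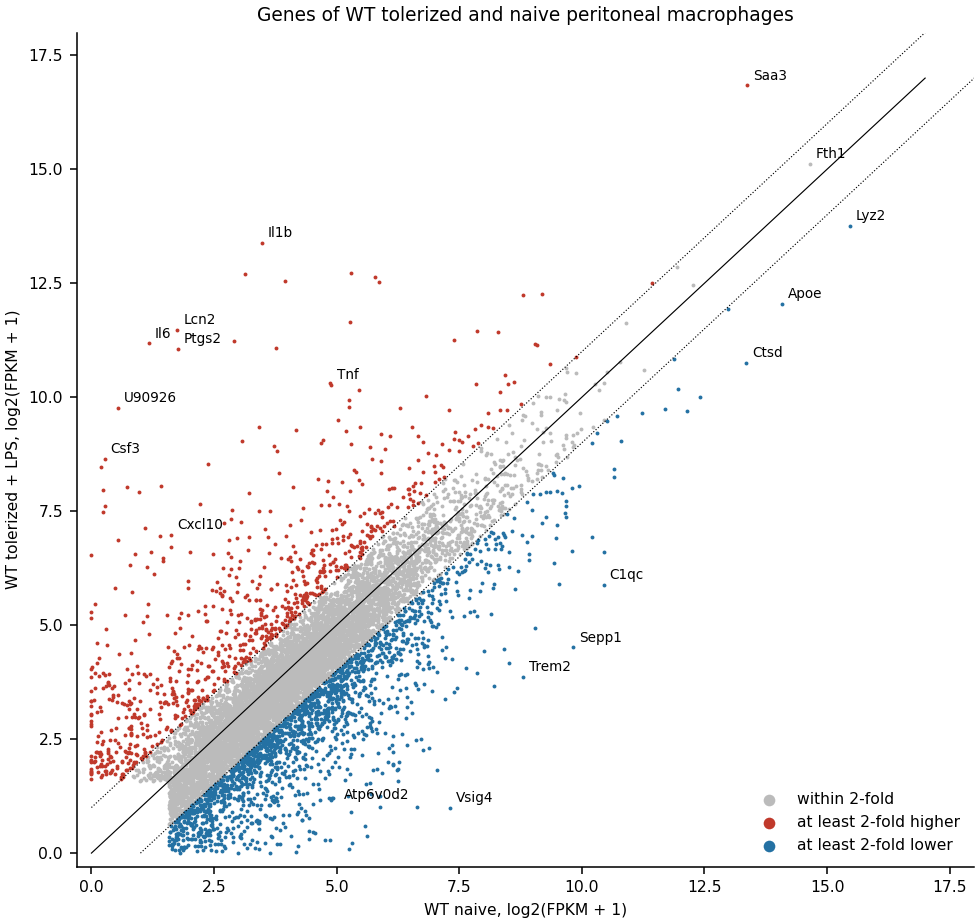
Each point is 1 gene, small RNA genes left out, with its level in the WT naive library (x axis) and the WT tolerized and restimulated library (y axis), both as log2(FPKM + 1). The solid line marks equal levels and the dotted lines a 2-fold difference; red genes are at least 2-fold higher and blue genes at least 2-fold lower, and the genes farthest from the line, Il6 (1.25 to 2317 FPKM) and Vsig4 (158.5 to 0.998 FPKM), lie at the upper left and the lower right.

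The genes that met the 2-fold rule in the higher direction took 6.34% of all FPKM in the naive library and 43.2% in the tolerized one. Those that met it in the lower direction took 35.9% and 8.76%. Much of the first share was 1 gene. Saa3, an acute phase protein that macrophages secrete, stood at 10567 FPKM in naive and 117289 FPKM in tolerized cells (log2 ratio 3.47), and took 1.84% and 17.5% of the FPKM of the respective libraries. In the WT cells given LPS once it stood at 34694 FPKM, between the other two, and in KO cells it was 53305 FPKM already in the naive library and 92289 FPKM in the tolerized one. Without Saa3 the FPKM sums of the 2 WT libraries were 563347 and 554662. At the edge of the rule, Elp4 entered with 2.00 FPKM in naive and 1.86 in tolerized cells, and Gnrh1, whose naive value of 2.00 was below 2 before rounding, stayed out with 1.58 in tolerized cells. Rdh11 (12.5 to 26 FPKM) was just past 2-fold higher and Rpn1 (60.6 to 122.2 FPKM) just short of it. Rbbp9 (11.1 to 5.04 FPKM) was just past 2-fold lower, and Baiap2 (35.0 to 17 FPKM) just short.

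The deposited intervals imply about 17.7 M to 25.2 M fragments in each of the 6 libraries, an estimate, with 21.4 M in WT naive and 24.9 M in WT tolerized cells. At 10 FPKM or more the intervals of those 2 libraries reached a median of 5.33% and 5.05% to either side of the value, and at 2 to 5 FPKM 14.7% and 13.8%. They cover counting error only. Of the genes past 2-fold, 20 had overlapping intervals. The targeted microRNA genes, Mir221 at chrX:18723420-18723514 and Mir222 at chrX:18724019-18724097 in build mm9, were listed at 0 in all 6 libraries, which does not check the genotypes, because poly-A libraries of mRNA do not measure mature microRNAs. The loci of 1774 of the 10396 genes overlapped that of another row, and reads of such genes cannot be told apart where the strand was not used, which the sources used here do not state. Il1b, Il1a, B2m and Mtus1 are among them.

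The cells carried macrophage markers in both libraries, but several of them differed between the libraries. The markers in the next sentences were named after their values were seen. Emr1, which encodes the macrophage surface protein F4/80, stood at 431.2 FPKM in naive, 278.0 in LPS and 921.9 in tolerized cells. Csf1r, the receptor for the macrophage growth factor CSF1, stood at 895.0, 147.2 and 256.7 FPKM, and the endosomal glycoprotein gene Cd68 at 1772, 1014 and 524.3 FPKM. Emr1 was thus highest and Cd68 lowest in the tolerized library. Of 15 measured B cell markers, 2 were at least 2-fold higher and 4 at least 2-fold lower, or 2 lower after rescaling. The shares as deposited were 13.3% and 26.7%, against 8.08% and 16.8% of all genes. Igj (2.21 to 9.62 FPKM) and Fcer2a (3.52 to 8.62 FPKM) were higher. Cd79b (192.2 to 72.1 FPKM), Fcrla (97.0 to 45.9 FPKM), Faim3 (83.8 to 30.5 FPKM) and Blk (33.9 to 16.0 FPKM) were lower. Ms4a1, which encodes the B cell surface protein CD20, stood at 121.9 FPKM in naive, 81.6 in LPS and 120.3 in tolerized cells. All 16 listed markers, which include 1 under 2 FPKM, summed to 947.9 FPKM in naive and 604.5 FPKM in tolerized cells, so B cell transcripts were present in both libraries.

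Other cell types left smaller traces. The 16 listed markers of T and NK cells, 10 of them under 2 FPKM, summed to 48.7 FPKM in naive and 38.5 FPKM in tolerized cells. Of the 6 measured, Cd2 was past 2-fold, with 27.3 and 10.3 FPKM, while Cd3d, Cd3e, Cd3g, Lck and Thy1 were not. The share lower was 16.7%, against 16.8% of all genes. The 10 listed mast cell and basophil markers summed to 143.7 and 278.7 FPKM. Of the 7 measured, 2 were at least 2-fold higher and none was lower, 28.6% and 0% against 8.08% and 16.8% of all genes. The higher ones were Hdc, the histamine-forming enzyme that stimulated macrophages also make, at 1.20 and 76.8 FPKM, and the mast cell protease Mcpt4, at 8.72 and 24.4 FPKM. The mast cell proteases Cma1 (40.4 and 65.2 FPKM) and Tpsb2 (62.4 and 87.2 FPKM) were within 2-fold. The 14 neutrophil markers found summed to 262.5 FPKM in naive and 282.1 FPKM in tolerized cells. Of these markers, Mpo and Elane were under 0.1 FPKM and Ngp was listed at 0 in both libraries. All 5 measured were past 2-fold, 40% higher and 60% lower against 8.08% and 16.8% of all genes. Csf3r (122.8 to 53.5 FPKM), Mmp8 (69.6 to 27 FPKM) and Prtn3 (2.44 to 0.0536 FPKM) were lower in tolerized cells, and Camp (0.738 to 8.85 FPKM) and S100a8 (65.2 to 191.1 FPKM) were higher. S100a9 was also listed at 0 in all 6 libraries although its partner S100a8 was not, so that its 0 can be a failed estimate. The 14 listed mesothelial and fibroblast markers summed to 8.21 FPKM in naive and 29.9 FPKM in tolerized cells, of which Pdgfrb took 11.3 and Dcn 10.3 FPKM in the latter, while the mesothelial markers Msln and Upk3b stayed under 0.5 FPKM in both. The 7 listed endothelial markers summed to 10.3 FPKM in naive and 7.58 FPKM in tolerized cells. Pecam1, the only 1 measured, stood at 8.58 and 7.28 FPKM, while Cdh5 and Kdr were under 0.1 FPKM. The part of these cells in the differences below was not tested.

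**Figure D2:**
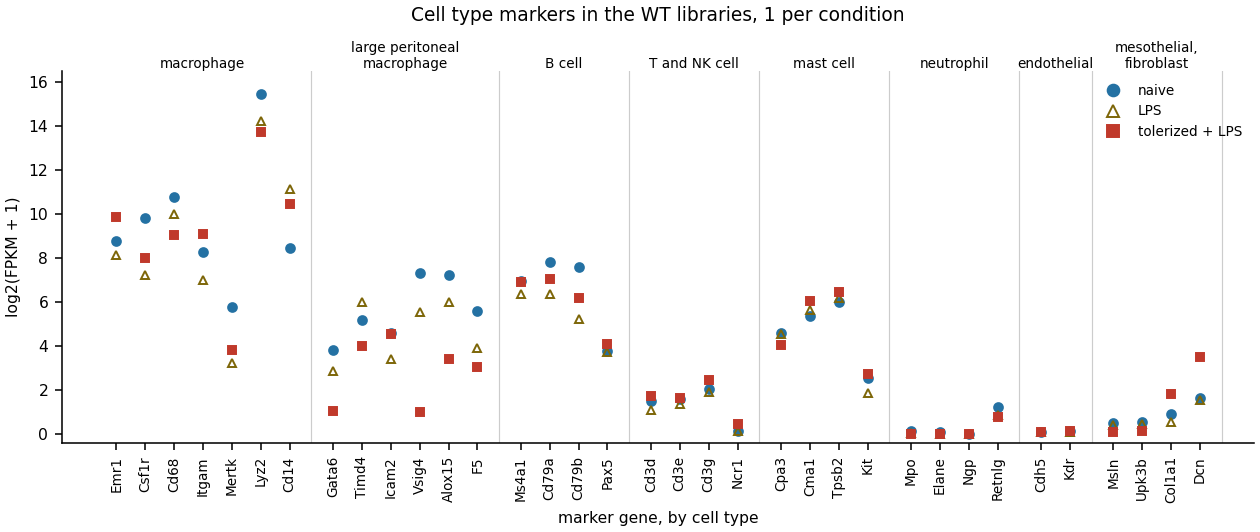
Levels of marker genes of 8 cell types in the 3 WT libraries, as log2(FPKM + 1), with naive as blue circles, LPS as open triangles and tolerized as red squares, 1 library each. The B cell marker Ms4a1 lies at nearly the same level in naive and tolerized cells, while the B cell marker Cd79b lies lower in tolerized cells. The large peritoneal macrophage genes Gata6 and Vsig4 lie far lower in tolerized cells, and the neutrophil markers Mpo, Elane and Ngp lie near 0. Other listed neutrophil markers, not drawn here, were not near 0, as Csf3r with 122.8 FPKM in naive and 53.5 in tolerized cells.

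The 15 genes with the highest ratios, among those with at least 10 FPKM and separate intervals, were dominated by secreted mediators. Il6, the cytokine that drives the acute phase response, stood at 1.25 FPKM in naive, 4138 in LPS and 2317 in tolerized cells. Its log2 ratio of 10.01 was the highest outside small RNA genes, and the bounds of the 2 deposited intervals allow 9.70 to 10.40. Il1b, a pyrogenic cytokine that the inflammasome releases, stood at 10.2, 15482 and 10682 FPKM (log2 ratio 9.90). In both genes the naive library was lowest, the library given LPS once was highest, and the intervals of naive and tolerized cells were far apart. Lcn2, which encodes a protein that withholds iron from bacteria, followed another order, with 2.37 FPKM in naive, 39.7 in LPS and 2862 in tolerized cells (log2 ratio 9.73). Ptgs2, the inducible cyclooxygenase of prostaglandin synthesis, reached nearly the same level after 1 exposure as after both, with 2.38, 2298 and 2124 FPKM (log2 ratio 9.30). The transcript U90926 stood at 0.461, 116.6 and 864.8 FPKM (log2 ratio 9.21, with bounds from 8.73 to 9.79, since its naive value is low).

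The 4 neutrophil-attracting chemokines among those 15, all ligands of CXCR2, lie in 1 region of chromosome 5 in mm9, with Ppbp and Pf4 between Cxcl5 and Cxcl3: Cxcl5 at 91188325 to 91190651, Cxcl3 at 91215129 to 91217116, Cxcl1 at 91320271 to 91322141 and Cxcl2 at 91332925 to 91334964. Il6 lies on the same chromosome at 30339701 to 30346508. Of the 15 genes, 11 had a RefSeq promoter of the same symbol. Among these 11, the promoters of Il6, Cxcl3, Cxcl1 and Cxcl2 each hold a kappaB motif, the short sequence to which NF-kappaB binds, and they are shown for that match. Ptgs2 and Il1a matched only other motifs searched here, a CLEAR match 16 bases after the start and an AP-1 match 12 bases before it, and Il1b, Lcn2, U90926, Csf2 and Inhba matched none. The sequences, from RefSeq with build GRCm38.p6, run from 250 bases before to 50 bases after the annotated start, and capitals mark motif matches. The coordinates in that build are chr5:30012864-30013163 for Il6, chr5:90785851-90786150 for Cxcl3, chr5:90890995-90891294 for Cxcl1 and chr5:90903649-90903948 for Cxcl2, all on the plus strand.
Il6: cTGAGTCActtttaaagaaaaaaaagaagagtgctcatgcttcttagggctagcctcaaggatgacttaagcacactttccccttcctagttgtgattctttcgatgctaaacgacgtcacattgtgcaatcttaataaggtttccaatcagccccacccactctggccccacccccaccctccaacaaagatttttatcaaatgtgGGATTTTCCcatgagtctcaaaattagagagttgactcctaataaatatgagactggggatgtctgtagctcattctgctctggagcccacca
Cxcl3: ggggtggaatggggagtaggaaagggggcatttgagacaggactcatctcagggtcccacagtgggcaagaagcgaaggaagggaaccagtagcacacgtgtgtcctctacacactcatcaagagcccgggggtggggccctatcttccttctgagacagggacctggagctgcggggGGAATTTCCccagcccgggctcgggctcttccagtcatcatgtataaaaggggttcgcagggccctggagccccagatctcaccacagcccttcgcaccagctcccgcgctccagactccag
Cxcl1: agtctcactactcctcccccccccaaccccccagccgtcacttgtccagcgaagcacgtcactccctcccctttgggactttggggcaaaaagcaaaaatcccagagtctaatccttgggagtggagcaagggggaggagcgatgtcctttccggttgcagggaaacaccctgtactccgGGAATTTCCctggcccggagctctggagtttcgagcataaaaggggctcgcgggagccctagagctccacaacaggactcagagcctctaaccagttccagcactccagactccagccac
Cxcl2: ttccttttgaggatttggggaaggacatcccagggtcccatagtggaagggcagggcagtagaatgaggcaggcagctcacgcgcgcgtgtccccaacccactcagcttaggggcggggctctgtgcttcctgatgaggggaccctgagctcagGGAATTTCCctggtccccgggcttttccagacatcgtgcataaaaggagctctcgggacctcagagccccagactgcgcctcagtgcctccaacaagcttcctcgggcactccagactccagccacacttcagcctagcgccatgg

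The kappaB match GGATTTTCC of Il6 begins 43 bases before its start, and its other capitals are an AP-1 match, TGAGTCA, 249 bases before the start. In Cxcl3, Cxcl1 and Cxcl2 the match was the same 9 bases, GGAATTTCC, and began 72, 70 and 96 bases before the start. Over the whole comparison, 7548 of 10364 genes had a RefSeq promoter of the same symbol. The kappaB motif, searched as GGANTTTCC on both strands, stood in 4.20% of the 738 promoters of genes at least 2-fold higher, in 1.15% of 1652 promoters of genes at least 2-fold lower, in 1.27% of 7239 promoters of genes within 2-fold, and in 1.25% of all 32851 promoters. The interferon response motif AAANNGAAA stood in 15.6%, 9.20%, 7.49% and 10.6% of these promoters in the same order, and the AP-1 motif TGANTCA in 10.4%, 5.45%, 4.68% and 7.81%. For the CLEAR motif TCACGTG, the box of lysosomal genes that TFEB binds, the order differed, with 3.93%, 6.66%, 6.31% and 3.77%. All promoters include those of genes outside the comparison. A match describes the letters in this window and is not a measured site.

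**Figure D3:**
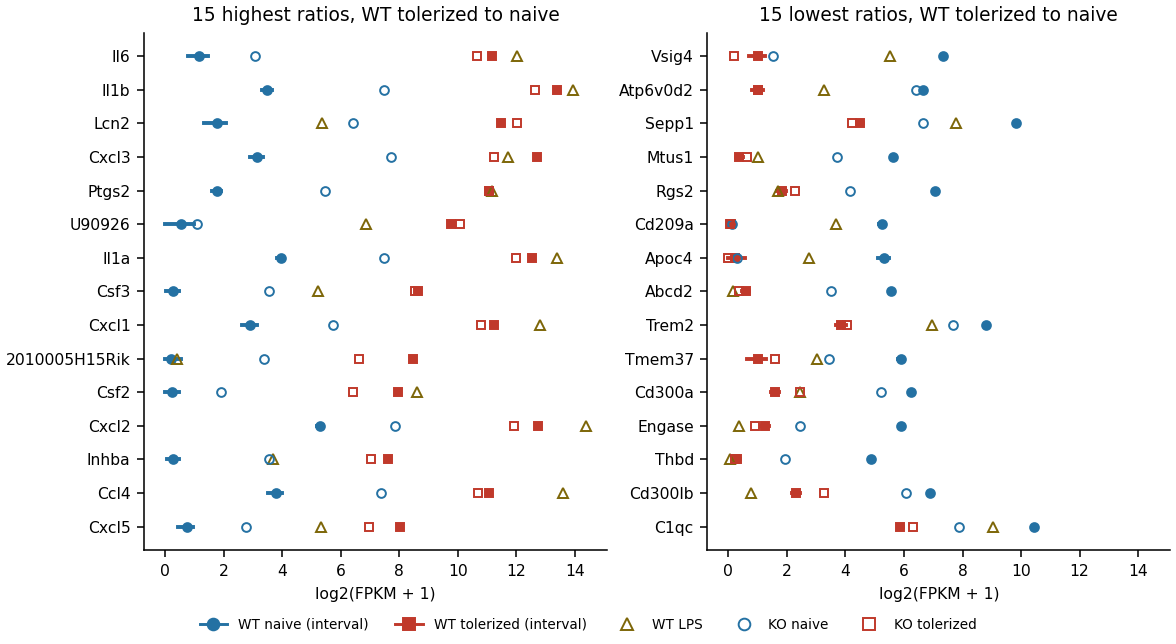
Levels of the 15 genes with the highest and the 15 with the lowest ratio of WT tolerized to WT naive cells, as log2(FPKM + 1). Filled symbols with bars are the 2 WT libraries and their deposited intervals, open triangles the WT library given LPS once and open circles and squares the KO naive and tolerized libraries; in these 30 genes, chosen by their WT values, the KO naive value lies between the 2 WT values, as for Il1b with 175.2 FPKM against 10.2 and 10682.

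Most inflammatory cytokines stood far above naive cells. Of 24 measured, 20 were higher and 1 was lower, 83.3% against 8.08% of all genes, and their median was 3.69, or 3.93 relative to all genes. Tnf, the first cytokine that macrophages release on contact with LPS, stood at 28.7 FPKM in naive, 13818 in LPS and 1235 in tolerized cells (log2 ratio 5.38). Il12b, a subunit shared by interleukins 12 and 23, stood at 0.245, 144.4 and 22.8 FPKM (log2 ratio 4.26). Both thus remained far above naive cells and below the library given LPS once. The colony-stimulating factors did not share an order: Csf2, the granulocyte-macrophage factor, stood at 0.173, 388.4 and 247.1 FPKM, and Csf3, the granulocyte factor, at 0.206, 36.2 and 400.5 FPKM. Inhba, the subunit of activin A, also had its highest level in tolerized cells, at 194.4 FPKM against 0.216 in naive and 11.8 in LPS. Il15, which sustains NK and memory T cells, stood at 6.78 FPKM in naive, 142.4 in LPS and 4.64 in tolerized cells. The only member at least 2-fold lower was Vegfa, the vascular growth factor, at 18.1 and 2.61 FPKM. The list median of LPS against naive was 5.60, a value that shares the naive library with the ratio above.

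Chemokines of both classes were high, with exceptions. Of 11 measured CC chemokines, 9 were higher and 1 was lower, 81.8% and 9.09% against 8.08% and 16.8% of all genes. Their median was 5.04, or 5.28 relative to all genes. Ccl3 stood at 57.0 FPKM in naive, 20884 in LPS and 5864 in tolerized cells, Ccl4 at 12.6, 12355 and 2161 FPKM, and Ccl5 at 54.0, 10776 and 6346 FPKM. These attract monocytes and T cells, and all 3 had their highest level after the single dose. Ccl22 and Ccl17, which attract T cells through CCR4, had theirs in tolerized cells, with 12.2, 168.3 and 486.3 FPKM for Ccl22 and 3, 32.0 and 96.3 FPKM for Ccl17. Ccl6 was lower, at 314.4 FPKM in naive and 74.5 in tolerized cells, and Ccl24, an eosinophil attractant, was within 2-fold at 72.4 and 47.2 FPKM. Of 11 measured CXC chemokines, 6 were higher and 3 lower, 54.5% and 27.3% against the same 8.08% and 16.8%. Their median was 3.44, or 3.68 relative to all genes. Cxcl10, an interferon-induced attractant of T cells, stood at 2.08, 5175 and 125.4 FPKM, the largest ratio of the single to the repeated exposure among the chemokines named here. Pf4, a platelet factor that macrophages also express, stood at 447.8, 948.1 and 4869 FPKM, while its platelet neighbour Ppbp was at 4.59 and 7.11 FPKM in naive and tolerized cells. The 3 lower ones were Cxcl13 (325.9 to 101.5 FPKM), Cxcl12 (3.19 to 0.307 FPKM) and Cxcl14 (37.7 to 3.32 FPKM), which resting tissues express.

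Receptors for chemoattractants were found on both sides. Of 16 measured, 6 were higher and 5 lower, 37.5% and 31.25% against 8.08% and 16.8% of all genes. Their median was 0.42, or 0.66 relative to all genes. The formyl peptide receptors, which sense bacterial peptides, were among the higher ones: Fpr1 stood at 42.7 FPKM in naive and 1139 in tolerized cells, and Fpr2 at 35.7 and 616.3 FPKM. So were the chemokine receptors Ccr7 (12.7 to 58.4 FPKM) and Ccrl2 (36.0 to 76.7 FPKM). The lowest ratios belonged to chemokine receptors of monocytes and resting macrophages, Cxcr4 with 340.7 and 21.2 FPKM, Ccr2 with 9.68 and 0.636 FPKM, and Cx3cr1 with 12.2 and 1.19 FPKM, and C3ar1, the receptor of complement C3a, was also lower (271.8 to 70.9 FPKM). Toll-like receptors and their adaptors numbered 3 higher and 5 lower of 23, or 5 higher and 4 lower after rescaling, against 8.08% and 16.8% of all genes, with a median of -0.13 that turned to 0.11 relative to all genes. Within the list, Tlr1 was higher (18 to 86.8 FPKM), as was Cd14, the LPS co-receptor (345.9 to 1430 FPKM). Ly96, which encodes MD-2, stood at 78.6 and 69.1 FPKM, within 2-fold. The endosomal nucleic acid sensors Tlr8 (91.3 to 7.4 FPKM) and Tlr13 (163.2 to 35.5 FPKM) were the lowest, and Ticam2, the bridging adaptor of the TRIF branch, stood at 24.3 and 8.17 FPKM.

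Many genes that restrain Toll-like receptor signalling were high. Of 25 measured, 15 were higher and 3 lower, 60.0% against 8.08% of all genes, with a median of 1.33, or 1.57 relative to all genes. Socs1 and Socs3, inhibitors of cytokine receptor signalling, stood at 1.65 and 13.2 FPKM in naive cells and at 123.6 and 323.7 FPKM in tolerized cells. Their levels after the single dose were similar, 119.2 and 377.9 FPKM. Il1rn, the interleukin 1 receptor antagonist, stood at 31.6 FPKM in naive, 481.9 in LPS and 718.8 in tolerized cells. Tnfaip3, which encodes the ubiquitin-editing enzyme A20, stood at 39.6, 463.1 and 336.4 FPKM, and Cd274, the checkpoint ligand PD-L1, at 33.4, 355.7 and 280.7 FPKM. Tollip and the phosphatase gene Ptpn6 were nearest to no difference, with 34.0 and 34.3 FPKM and 186.9 and 185.9 FPKM. Of the 8 NF-kappaB subunits and kinases none was lower, and 2 were higher: Nfkb2 (37.7 to 244.6 FPKM) and Rel (16.7 to 35.9 FPKM). The shares were 25% higher and 0% lower, against 8.08% and 16.8% of all genes. Rela, the main activating subunit, stood at 48.4 and 53.5 FPKM.

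AP-1, ATF and EGR factors numbered 6 higher and 3 lower of 20, 30% and 15% against 8.08% and 16.8% of all genes. Their median was 0.43, or 0.67 relative to all genes. Fosl1 (0.271 to 12.6 FPKM), Batf (11.3 to 94.4 FPKM) and Maff (4.06 to 21.5 FPKM), all basic leucine zipper factors, were higher, while Fos stood at 16.8 FPKM in naive and 1.40 in tolerized cells. Jund and Egr1 stood at nearly equal levels, 38.6 and 39.5 FPKM and 7.98 and 7.80 FPKM.

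Interferon-stimulated genes were higher nearly throughout. Of 42 antiviral genes measured, 39 were at least 2-fold higher and none was lower, 92.9% against 8.08% of all genes, with a median of 2.72, or 2.96 relative to all genes. All 13 measured interferon-inducible GTPases were higher too, from 1.21 to 3.93 with a median of 2.17, or 2.41 relative to all genes. Isg15, a ubiquitin-like modifier, stood at 4.19 FPKM in naive, 1941 in LPS and 372.1 in tolerized cells. Ifit1, which binds foreign RNA ends, stood at 0.859, 1132 and 93.8 FPKM, and Oasl1 at 0.718, 746.2 and 79.4 FPKM. In these genes the tolerized library lay between the other two, nearer on a linear scale to naive cells. Zbp1, a sensor of unusual nucleic acids, stood higher within that span, at 8.22, 294.1 and 238.7 FPKM. The 3 that stayed within 2-fold included Daxx, at 20.4, 168.1 and 23.3 FPKM, and Trim21, at 9.73, 63.3 and 14.4 FPKM. Among the GTPases Gbp5 stood at 6.88, 810.5 and 118.6 FPKM, although members of this family share near-identical sequence and reads may be split between them. The list medians of LPS against naive, which share the naive library, were 4.12 for the antiviral genes and 3.77 for the GTPases.

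The factors that drive interferon genes were mixed. Of 22 interferon regulatory and STAT genes, 7 were higher and 2 lower, 31.8% and 9.09% against 8.08% and 16.8% of all genes (median 0.35, or 0.59 relative to all genes). Irf7, the amplifier of the interferon response, stood at 7.45 FPKM in naive, 356.1 in LPS and 528.9 in tolerized cells, the highest ratio of the list at 5.97. Stat2 stood at 11.6, 86.6 and 31.4 FPKM (log2 ratio 1.36) and Irf9 at 23.9, 73.0 and 44.5 FPKM (log2 ratio 0.87). Stat2 was therefore past 2-fold and Irf9 was not, and both were lower in tolerized cells than after the single dose. The lower members were Ifngr1, a chain of the interferon gamma receptor (108.4 to 33.0 FPKM), and Irf2 (73.4 to 25.9 FPKM).

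Acute phase and antimicrobial genes were high in tolerized cells beyond the level of the single dose in several cases. Of 19 measured, 13 were higher and 2 lower, with a median of 2.06, or 2.30 relative to all genes. The share higher was 68.4% against 8.08% of all genes, and the share lower was smaller than the 16.8% of all genes. Cfb, complement factor B, stood at 166.9 FPKM in naive, 537.7 in LPS and 2449 in tolerized cells. Clec4e, the lectin Mincle that senses mycobacterial glycolipids, stood at 232.1, 3100 and 2815 FPKM. The pentraxin gene Ptx3 had the reverse order of the exposures, with 0.0554, 56.0 and 14.4 FPKM. The 2 lower members were the lysozymes, both among the most abundant transcripts. Lyz2, the gene of highest FPKM in the naive library, stood at 45134 FPKM there and 13872 in tolerized cells, and Lyz1 at 4507 and 834.7 FPKM. These 2 genes are near-identical and reads may be shared between them.

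Enzymes of arginine and itaconate metabolism numbered 8 higher and 1 lower of 14, 57.1% and 7.14% against 8.08% and 16.8% of all genes. Their median was 1.26, or 1.5 relative to all genes. Slc7a2, a transporter of arginine, stood at 28.1 FPKM in naive, 868.9 in LPS and 1267 in tolerized cells. Irg1, which makes itaconate, stood at 37.0, 3416 and 985.3 FPKM. Nos2, the inducible nitric oxide synthase, stood at 0.0752, 23.5 and 23.3 FPKM (log2 ratio 4.5), nearly the same after both treatments. Arg1, which competes with it for arginine, stood at 16.7, 2.38 and 96.0 FPKM, and was the only one of these 4 that was lower after the single dose than in naive cells. Lipid mediator enzymes went the other way as a list, with 4 higher and 11 lower of 19, or 8 lower after rescaling. The shares were 21.1% and 57.9% as deposited against 8.08% and 16.8% of all genes, and the median was -1.12, or -0.88 relative to all genes. The higher ones included the prostaglandin E synthase Ptges (17.1 to 618.1 FPKM) and the phospholipase Pla2g4a (11.1 to 120.6 FPKM) beside Ptgs2. The other prostaglandin E synthases, Ptges2 (6.61 to 10.1 FPKM) and Ptges3 (71.3 to 115.6 FPKM), were within 2-fold, and the constitutive cyclooxygenase Ptgs1 (19.0 to 5.08 FPKM) and the prostaglandin E2 receptor Ptger4 (22.2 to 9.77 FPKM) were lower. The lowest were Ptgis, the prostacyclin synthase (76.5 to 3.01 FPKM), the lipoxygenase Alox15 (146.9 to 9.49 FPKM), and Hpgd, which degrades prostaglandins and was at 11.5 FPKM in naive cells and listed at 0 in tolerized ones.

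The 15 lowest ratios included genes of resting and phagocytic macrophages, such as Vsig4, Trem2 and C1qc. Vsig4, a complement receptor of tissue macrophages, stood at 158.5 FPKM in naive, 45.2 in LPS and 0.998 in tolerized cells (log2 ratio -6.32, with bounds from -6.65 to -6.03). Atp6v0d2, a subunit of the vacuolar proton pump, stood at 98.4, 8.66 and 1.03 FPKM (log2 ratio -5.62). Sepp1, which encodes selenoprotein P, stood at 901.0, 219.3 and 21.8 FPKM (log2 ratio -5.30). In these 3 genes the single dose gave a level between the other two. Rgs2, a regulator of G protein signalling, was about as low after the single dose, with 132 FPKM in naive, 2.25 in LPS and 2.52 in tolerized cells. Cd300lb, an activating receptor of myeloid cells, stood at 117.8, 0.701 and 3.95 FPKM, and its inhibitory neighbour Cd300a at 75.3, 4.48 and 2.01 FPKM. Thbd, which encodes the anticoagulant receptor thrombomodulin, stood at 28.3 FPKM in naive, 0.0444 in LPS and 0.220 in tolerized cells. The remaining genes of the 15 were Mtus1, Cd209a, Apoc4, Abcd2, Trem2, Tmem37, Engase and C1qc, from -5.24 to -4.57.

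Genes that set the identity of large peritoneal macrophages, the resident population of the cavity, were mostly low. Of 23 measured, 16 were at least 2-fold lower and 2 higher, or 4 higher after rescaling, 69.6% against 16.8% of all genes, with a median of -1.70, or -1.46 relative to all genes. Gata6, the transcription factor that specifies these cells, stood at 13 FPKM in naive, 6.15 in LPS and 1.07 in tolerized cells (log2 ratio -2.76). The level after the single dose lay between the other two. Cd5l, a scavenger protein also called AIM, stood at 69.6 and 2.87 FPKM in naive and tolerized cells, Padi4 at 51.5 and 5.39 FPKM, and Tgfb2 at 47.9 and 5.85 FPKM. Icam2, an adhesion molecule used to sort these cells, was at 23.4 and 22.1 FPKM, and Fabp7 at 181.9 and 112.8 FPKM, so not every marker was low. The 2 higher members were Serpinb2, an inhibitor of plasminogen activators (37.9 to 3227 FPKM), and the coagulation factor gene F10, named after its value was seen (80.6 to 225.0 FPKM). The list median of LPS against naive was -0.94, a comparison with the same naive library.

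Markers of small peritoneal macrophages and monocytes were also more often low than high, with 8 lower and 3 higher of 15. Both shares, 53.3% and 20%, were above the 16.8% and 8.08% of all genes. Their median was -1.02, or -0.78 relative to all genes. Cd209a, a C-type lectin of monocyte-derived cells, stood at 36.9 FPKM in naive and 0.0638 in tolerized cells. F13a1, coagulation factor XIII, stood at 47.3 and 1.88 FPKM, and Mrc1, the mannose receptor, at 22.1 and 1.85 FPKM. Ly6c2, a marker of inflammatory monocytes with a near-identical neighbour, was higher, at 3.95 and 41.7 FPKM. Pan-macrophage genes numbered 10 lower and 4 higher of 18, 55.6% and 22.2% against 16.8% and 8.08% of all genes. Their median was -1.73, or -1.49 relative to all genes. Cebpa, a factor of myeloid differentiation, stood at 231.7 FPKM in naive, 21.4 in LPS and 14.5 in tolerized cells, Lgals3 at 1612, 1047 and 301.7 FPKM, and Aif1 at 50.7, 16.4 and 6.81 FPKM. Sfpi1, which encodes the lineage factor PU.1, stood at 213.8 FPKM in naive and 199.2 in tolerized cells, within 2-fold.

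Receptors that bind debris and dying cells were low in the main. Of 23 measured, 14 were lower and 4 higher, 60.9% against 16.8% of all genes, with a median of -1.85, or -1.61 relative to all genes, the lowest of the 38 lists of function. Trem2, a receptor for lipids and apolipoproteins, stood at 446.1 FPKM in naive, 124.4 in LPS and 13.5 in tolerized cells. Itgb5, part of an integrin that engages apoptotic cells, stood at 74.0, 5.48 and 2.56 FPKM, and Gas6, the bridge between phosphatidylserine and the TAM receptors, at 15.7, 1.85 and 0.290 FPKM. Among the higher ones were bacterial scavenger receptors, named after their values were seen: Marco stood at 542.7, 1459 and 2262 FPKM and Msr1 at 203.6, 255.2 and 562.7 FPKM. The complement list held both directions, with 4 higher and 6 lower of 17, against 8.08% and 16.8% of all genes. The 3 chains of C1q, which tags dying cells, were all low, with C1qa at 1184 and 121.8 FPKM, C1qb at 1396 and 96.2 FPKM and C1qc at 1390 and 57.8 FPKM. The alternative pathway factor Cfb was high, as given above. Fc receptors and C-type lectins numbered 5 higher and 7 lower of 18, 27.8% and 38.9% against the same 8.08% and 16.8%. Clec4a1 (36.3 to 193.9 FPKM) was high, and Fcgr3 (812.9 to 196.0 FPKM) and Fcgrt, the neonatal Fc receptor that recycles IgG (51.5 to 6.49 FPKM), were low.

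**Figure D4:**
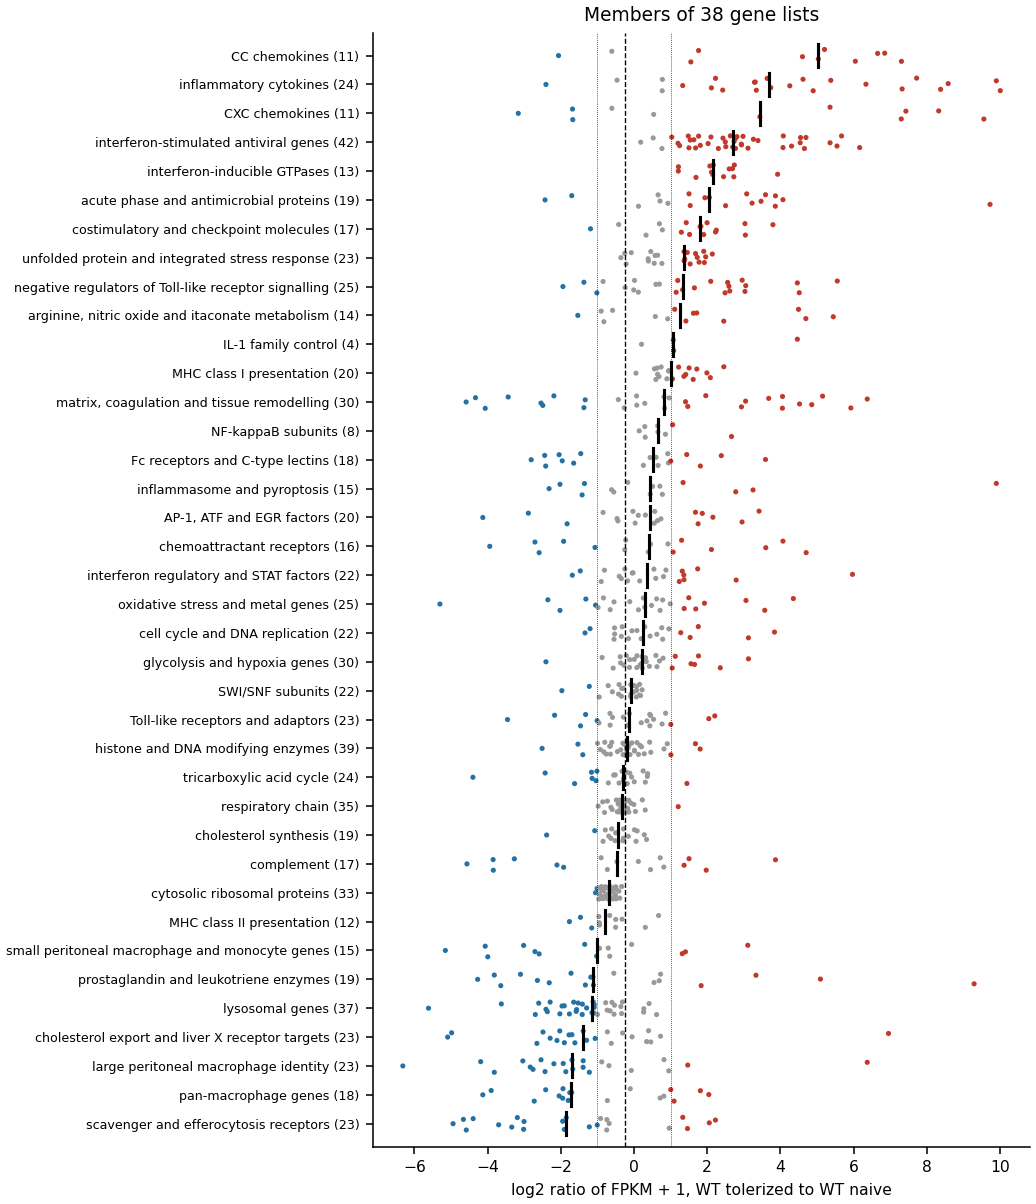
Ratios of WT tolerized to WT naive cells on the log2(FPKM + 1) scale (x axis) for the measured members of 38 gene lists, sorted by median, with the number of members in parentheses. Each point is 1 gene, red at least 2-fold higher and blue at least 2-fold lower, black bars are list medians, the dashed line is the all-gene median of -0.24 and dotted lines mark 2-fold; CC chemokines (median 5.04) are at the top and scavenger and efferocytosis receptors (median -1.85) at the bottom.

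No lysosomal gene was at least 2-fold higher. Of 37 measured, 23 were lower, 62.2% against 16.8% of all genes, and 18 were lower after rescaling, with a median of -1.15, or -0.91 relative to all genes. The list summed to 31135 FPKM in naive, 10381 in LPS and 9304 in tolerized cells. Ctsd, which encodes the protease cathepsin D, stood at 10448, 1730 and 1717 FPKM. Psap, the precursor of the saposins, stood at 5453, 1818 and 1028 FPKM, and Lgmn, the protease legumain, at 742.7, 203.5 and 59.2 FPKM. Npc2, a cholesterol carrier of the lysosome, stood at 357.7 and 431.2 FPKM in naive and tolerized cells, within 2-fold.

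Genes of cholesterol export were low along with them. Of 23 members of the list of liver X receptor targets and related genes, 14 were lower and 1 higher. The shares were 60.9% and 4.35% against 16.8% and 8.08% of all genes, and the median was -1.39, or -1.15 relative to all genes. Apoe, the apolipoprotein that carries exported cholesterol, stood at 17362 FPKM in naive, 8172 in LPS and 4254 in tolerized cells. Pltp, which transfers phospholipids, stood at 484.1, 205.9 and 85.5 FPKM, and Apoc2 at 100.6, 26.2 and 19.7 FPKM. Abcd2, a peroxisomal fatty acid transporter, stood at 46.6, 0.127 and 0.502 FPKM. The single higher member was Ch25h, which makes the antiviral oxysterol 25-hydroxycholesterol, at 0.956, 853.7 and 241.8 FPKM. In cholesterol synthesis none was higher and 2 of 19 were lower, or 1 after rescaling, a smaller share than the 16.8% of all genes. Those 2 were Dhcr7, at 16.2 and 2.29 FPKM, and Sc5d, at 27.8 and 12.7 FPKM.

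Genes of antigen presentation were counted by class. Of 20 genes of MHC class I presentation, 10 were higher and none was lower, 50% higher against 8.08% of all genes. Their median was 1.00, or 1.24 relative to all genes. Tap1, a subunit of the peptide transporter, stood at 17.4 FPKM in naive, 124.8 in LPS and 76.9 in tolerized cells, and B2m, the light chain of every class I molecule, at 3956, 5568 and 7381 FPKM. H2-T22 (15.5 to 89.4 FPKM) and H2-Q7 (24.8 to 101.6 FPKM) were among the higher ones, but belong to a family of near-identical genes whose reads cannot be assigned with certainty. Class II numbered none higher and 3 lower of 12, or 2 lower after rescaling, 25% as deposited against 16.8% of all genes, a share near the background (median -0.80, or -0.56 relative to all genes). The class II chains themselves were within 2-fold: H2-Ab1 stood at 794.4 and 984.8 FPKM, H2-Aa at 1395 and 725.6 FPKM, H2-Eb1 at 582.5 and 301.4 FPKM and the invariant chain Cd74 at 2451 and 1547 FPKM. The lower 3 were Ctss, the protease that frees the peptide groove (3966 to 1166 FPKM), H2-DMa (122.4 to 43.8 FPKM) and H2-DMb1 (64.2 to 28.3 FPKM), which load peptide. Costimulatory and checkpoint molecules were mostly high, with 12 higher and 1 lower of 17, 70.6% higher against 8.08% of all genes. Cd40 stood at 18.3, 599.4 and 157.9 FPKM in naive, LPS and tolerized cells, and Slamf1 at 0.478, 4.24 and 19.5 FPKM. Cd86, a ligand of CD28, stood at 53.3 and 39.6 FPKM in naive and tolerized cells.

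Matrix and coagulation genes were found on both sides, with 13 higher and 9 lower of 30, 43.3% and 30% against 8.08% and 16.8% of all genes. The collagenase Mmp13 stood at 9.69 FPKM in naive, 126.1 in LPS and 648.9 in tolerized cells, the protease inhibitor Timp1 at 1.41, 101.4 and 68.9 FPKM, and Procr, the receptor of protein C, at 37.3, 620.5 and 880.6 FPKM. The stromelysin Mmp3 was listed at 0 in naive cells and stood at 34.6 FPKM in tolerized ones. The elastase Mmp12 was nearly equal, at 611.8 and 645.0 FPKM. Inflammasome genes numbered 4 higher and 4 lower of 15, or 26.7% in each direction against the same 8.08% and 16.8%. Nlrp3, the sensor of membrane damage, stood at 18.8, 335.9 and 187.7 FPKM, while its adaptor Pycard stood at 49.2, 18.9 and 17.8 FPKM and the flagellin receptor Naip5 at 43.2, 7.47 and 9.87 FPKM.

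Many genes of the unfolded protein and integrated stress responses were higher in tolerized cells of WT. Of 23 measured, 12 were at least 2-fold higher, 52.2% against 8.08% of all genes, 11 were within 2-fold and none was lower. Their median was 1.37, or 1.6 relative to all genes. The list medians were 0.35 for LPS against naive in WT, with the same naive library, and 0.56 for tolerized against naive in KO. In KO, 2 of these genes were at least 2-fold higher and none was lower, against 5.98% and 12.8% of all genes. Among the chaperones of the endoplasmic reticulum, Hspa5 (BiP) stood at 319.7 FPKM in naive, 704.9 in LPS and 1099 in tolerized cells, Calr at 391.5, 289.3 and 1299 FPKM and the disulfide isomerase Pdia6 at 100.2, 122.9 and 392.4 FPKM. Calr was therefore lowest after the single dose and highest in tolerized cells. Mthfd2, a mitochondrial enzyme of folate metabolism, stood at 11.6, 55.4 and 54.4 FPKM, and Asns, the asparagine synthetase, at 5.30, 25.8 and 22.6 FPKM. The sensor Atf6 and the death-related factor Ddit3 were within 2-fold, at 20.6 and 19.5 FPKM and at 23.4 and 20 FPKM.

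Most genes of glycolysis, the tricarboxylic acid cycle and the respiratory chain were within 2-fold. Glycolysis and hypoxia genes numbered 7 higher and 1 lower of 30, 23.3% and 3.33% against 8.08% and 16.8% of all genes. Their median was 0.22, or 0.46 relative to all genes. The glucose transporter Slc2a1 stood at 31.8, 70.2 and 110.4 FPKM in naive, LPS and tolerized cells, the lactate exporter Slc16a3 at 12.5, 6.23 and 41.5 FPKM and Pgk1 at 68.1, 88.2 and 202.4 FPKM. All 3 were highest in tolerized cells. In the tricarboxylic acid cycle 1 gene was higher and 7 of 24 were lower, or 3 lower after rescaling. The shares were 4.17% and 29.2% as deposited against 8.08% and 16.8% of all genes, and the median was -0.31, or -0.07 relative to all genes. Idh1 stood at 209.4, 29.4 and 38.1 FPKM and Idh2 at 39.7, 6.88 and 12.2 FPKM. Ldhb, the lactate dehydrogenase chain of aerobic tissue, counted in the same list, stood at 38.5, 6.42 and 0.866 FPKM. Of 35 respiratory chain genes only Cycs, cytochrome c, was past 2-fold, at 17.2 and 41.0 FPKM, and the median was -0.32, or -0.08 relative to all genes. All 33 cytosolic ribosomal protein genes had ratios below 0, from -1.05 to -0.34 with a median of -0.70, or -0.46 relative to all genes, and 2 were past 2-fold, Rps14 (356.1 to 171.3 FPKM) and Rpl22 (82.3 to 40.4 FPKM), none after rescaling. Oxidative stress and metal genes numbered 7 higher and 5 lower of 25, 28% and 20% against 8.08% and 16.8% of all genes, with the cystine transporter Slc7a11 at 25.3 and 537.2 FPKM, the mitochondrial superoxide dismutase Sod2 at 67.3 and 569.1 FPKM, and the peroxidase Gpx1 at 505.2 and 123.6 FPKM.

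Chromatin regulators lay near the middle of all genes. Of 22 subunits of the SWI/SNF remodelling complexes, none was higher and 2 were lower, or 1 after rescaling, 9.09% as deposited against 16.8% of all genes. Smarca4, which encodes the ATPase BRG1, stood at 17.1 FPKM in naive, 11.7 in LPS and 20.1 in tolerized cells (log2 ratio 0.22), and the alternative ATPase Smarca2 at 21.6, 2.30 and 4.75 FPKM (log2 ratio -1.97). The list median of -0.09 turned to 0.14 relative to all genes. Of 39 enzymes that modify histones or DNA, 3 were higher and 3 lower, 7.69% in each direction against 8.08% and 16.8% of all genes, and 5 were higher after rescaling. Kdm6b, a demethylase of histone H3 lysine marks that LPS is known to raise, stood at 2.88, 27.5 and 12.6 FPKM, and Hdac5, a class II deacetylase, at 33.9, 0.725 and 5.13 FPKM. Their list median of -0.19 turned to 0.05 relative to all genes. Cell cycle genes numbered 5 higher and 2 lower of 22, 22.7% and 9.09% against 8.08% and 16.8% of all genes, or 7 and 1 after rescaling. Ccnd2, a D-type cyclin, stood at 2.94, 69.7 and 55.3 FPKM and the proliferation marker Mki67 at 2.50, 13.9 and 29.6 FPKM, while the replication helicase gene Mcm4 stood at 9.92 and 9.51 FPKM in naive and tolerized cells.

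Some genes stood at least 2-fold higher in tolerized cells than in both the naive library and the library given LPS once. The 10 of highest ratio were Lcn2, Cxcl3, U90926, Csf3, 2010005H15Rik, Inhba, Cxcl5, Upp1, Tarm1 and Gm5483. The stefin genes 2010005H15Rik and Gm5483, neighbours on chromosome 16 with near-identical copies, stood at 0.151 and 0 FPKM in naive, 0.331 and 0 in LPS, and 354.0 and 92.4 FPKM in tolerized cells. Both were at or near 0 after the single dose. Upp1, the uridine phosphorylase, stood at 0.182, 26.5 and 178.8 FPKM. Tarm1, an activating receptor of myeloid cells, stood at 1.66, 83.8 and 262.5 FPKM. The 10 of lowest ratio that were at least 2-fold below both were Vsig4, Atp6v0d2, Sepp1, Cd209a, Apoc4, Trem2, Tmem37, C1qc, C530028O21Rik and Ldhb. The tolerized library enters both comparisons that define these genes, and duration of exposure, dose history and second stimulus differ together between the 2 treated libraries.

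The same comparison in KO cells used other libraries throughout. Over 10352 genes without small RNA genes the ratios of the 2 genotypes had a Pearson correlation of 0.78 and a Spearman correlation of 0.74, as a description across genes, which are not independent replicates. In KO cells 619 of these genes (5.98%) were at least 2-fold higher in the tolerized library and 1330 (12.8%) at least 2-fold lower. The higher genes of the 2 genotypes shared 463, which is 56.1% of the 825 of WT and 74.8% of those of KO. The lower genes shared 917, which is 52.9% of the 1733 of WT and 68.9% of those of KO. Opposite directions past 2-fold in both were found for 17 genes. The ratios were smaller in KO: genes higher in WT had a median of 1.76 in WT and 1.14 in KO, and genes lower in WT had a median of -1.47 and -1.04. These genes were chosen by their WT ratio, so the 2 medians of each pair are not alike in that respect.

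Levels of these genes in the 4 libraries are given as a description, because the WT naive and WT tolerized values chose the genes and the KO values did not. Genes higher in WT had a median of 6.70 FPKM in the naive library of WT and 13 in that of KO, against 33.1 and 37.1 FPKM in the tolerized libraries. Genes lower in WT had medians of 19.0 and 12.9 FPKM in the naive libraries, and 4.77 and 5.46 FPKM in the tolerized ones. Il1b stood at 10.2 FPKM in naive cells of WT and 175.2 in those of KO, against 10682 and 6326 FPKM in the tolerized libraries. Vsig4 stood at 158.5 and 1.87 FPKM in the same naive libraries, and Cd209a at 36.9 and 0.0898 FPKM, so that their KO ratios were -1.34 and -0.08. Acute phase genes, with 13 higher and 2 lower of 19 in WT, numbered 5 higher and 4 lower in KO, where Cfb stood at 2798 FPKM in naive and 3142 in tolerized cells. Of all genes, 8.08% were higher and 16.8% lower in WT. In KO these shares were 5.98% and 12.8%, without small RNA genes. The ratios of antiviral genes were close in the 2 genotypes, with 39 higher of 42 in WT and 41 in KO (medians 2.72 and 3.04). Their levels were not always close. Rsad2 stood at 1.23 and 43.1 FPKM in WT naive and tolerized cells and at 10.6 and 331.5 FPKM in KO. Parp9 differed less, at 13.8 and 41.8 FPKM in WT and at 14.1 and 56.1 FPKM in KO. Nos2 stood at 0.453 FPKM in KO naive and 304.4 in KO tolerized cells, against 23.3 FPKM in WT tolerized cells. With 1 library per group, a difference of genotype and a difference between 2 preparations of naive cells cannot be told apart.

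**Figure D5:**
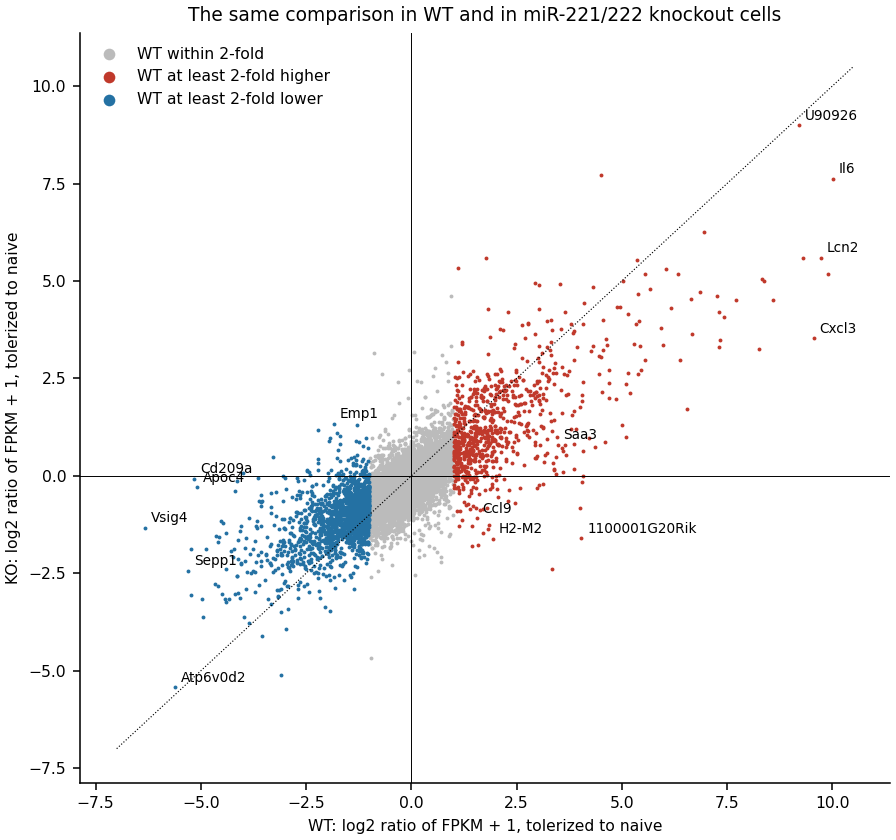
Ratio of tolerized to naive cells in WT (x axis) and KO (y axis) for each gene, both on the log2(FPKM + 1) scale, with the dotted line where the 2 are equal and colours by the WT ratio. Most genes past 2-fold in WT lie on the same side in KO and nearer to 0, as Il6 (10.01 in WT, 7.61 in KO), while 1100001G20Rik, Ccl9, H2-M2 and Emp1 lie on opposite sides.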

How the data were processed

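Poly-A RNA, isolated with a Qiagen miRNeasy kit, went into TruSeq libraries (per the labels' protocols) for an Illumina HiSeq2000 (as the design text states). Each of the deposited tables, 1 for every library, holds FPKM per gene with lower and upper bounds, computed by the authors, per the file headers. bcl2fastq 1.8.4, TopHat, Cufflinks and build mm9 are named in the submitters' processing notes, and the sources used here give no version of TopHat or Cufflinks, no settings and no annotation. FPKM is relative, so a few abundant genes can lower the values of the others.

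Rows not OK in either WT library (318), 712 rows of 248 symbols at several loci and rows under 2 FPKM in both libraries were left out. Ratios used log2(FPKM + 1), and a rule of 2-fold took the place of a test. Ratio bounds combine the extremes of the deposited bounds. Depth was estimated by reading each half-width as 2 standard errors of a count. Python 3.11.15, pandas 2.3.3, numpy 2.4.6 and matplotlib 3.10.9 were used, and the steps were tested on simulated data. Of 10396 genes, 32 were small RNA genes, which such libraries do not measure; none is named for its ratio.

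The comparison and the 47 gene lists (919 genes, 801 measured) were chosen with earlier results of these data known. Named are the 15 highest and lowest ratios with at least 10 FPKM in the higher library, the 10 most abundant genes of each library, up to 6 largest ratios and 2 nearest 0 per list (all of lists up to 12), 12 genes of opposite direction in WT and KO, 10 genes beyond both other WT libraries in each direction, genes next to a threshold, and Tnf, Il6, Il12b, Nos2, Stat2, Irf9, Gata6 and Smarca4. Markers of cell types listed near 0 and others said to be so were named after their values were seen. Some genes that these rules name are not reported here, although the counts of their lists include them. RefSeq promoters were matched by symbol; their build differs from mm9 and no coordinates were moved. 9 alternative settings were tried.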

Additional observations from a re-analysis of the deposited data

Results flagged for a closer look

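Of the 17 genes that were at least 2-fold higher in tolerized than naive cells of 1 genotype and at least 2-fold lower in the other, the 12 with the largest WT ratio are given. The difference between the genotypes was not tested, since each value is 1 library. In 8 of them the WT ratio was above 0. 1100001G20Rik, which encodes a small whey acidic protein domain protein, was listed at 0 FPKM in WT naive cells and stood at 15.4 FPKM in WT tolerized cells (4.04 on the log2(FPKM + 1) scale, which is no fold), and at 36.2 and 11.2 FPKM in KO. Snhg9 (3.34 on the same scale) was listed at 0 and 9.14 FPKM, with an interval from 0 to 19.7 that overlaps the naive value. The others had log2 ratios of 1.93 for H2-M2, 1.84 for Gstm2, 1.82 for Serf1, 1.70 for Slc6a12, 1.57 for Artn and 1.55 for Ccl9. For these 6 the KO naive level was above the WT naive level, as for Ccl9, a chemokine, with 155.0 FPKM in WT naive and 644.8 in KO naive cells, or H2-M2 with 6.73 and 90.4 FPKM.

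The 4 with a WT ratio below 0 were Apoc1 (-1.70), Mmp27 (-1.76), Emp1 (-1.84) and 1810011O10Rik (-2.21). Apoc1, an apolipoprotein gene next to Apoe, stood at 90 and 27.1 FPKM in WT naive and tolerized cells and at 7.68 and 16.7 FPKM in KO. Emp1, a membrane protein gene, stood at 40.5 and 10.6 FPKM in WT and at 14.6 and 38 FPKM in KO, so that here the tolerized libraries of the genotypes differed as well.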

How the results depend on the processing

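The genes at least 2-fold higher numbered 840, and between 588 and 1141 under the 9 alternatives. Those at least 2-fold lower numbered 1742, and between 1187 and 2096 under 8 of them, but 958 with a pseudocount of 5 FPKM in place of 1, which draws low values together by construction. The all-gene median of -0.24 was 0 with no filter on low values, which adds genes at 0 in both libraries, and 0.00231 after rescaling to a common median ratio (factor 0.831), as that setting is made to give. No named gene changed sign past 2-fold. Of 245 named genes past 2-fold, 28 no longer were with a pseudocount of 5 FPKM, 10 after the median rescaling, 5 after rescaling to the same sum without the 50 most abundant rows (factor 0.948) and 1, Snhg9, where intervals had to be separate. With 1 library per group no replicate could be left out. No paired analysis was possible because each group is 1 library and no test was made. Precision is limited by depth at low values, and the spread between animals or cultures is not known from these files.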

Other observations

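Without small RNA genes, 79 genes were under 2 FPKM in naive and at least 10 FPKM in tolerized WT cells, and 91 were the reverse. Among the 4 measured genes that bind or block cytokines of the interleukin 1 family, Il1rn, Il18bp and Il1rap were at least 2-fold higher. The share was 75%, against 8.08% of all genes. Il18bp and Il1rap were only just past 2-fold, with log2 ratios of 1.08 and 1.07, against 4.46 for Il1rn. Il18bp, which encodes the binding protein of interleukin 18, stood at 11.6 FPKM in naive, 30.5 in LPS and 25.7 in tolerized cells, and Il1rap, the accessory chain of several receptors of the family, at 6.49, 16.6 and 14.7 FPKM. Il1rl1, the receptor of interleukin 33, stood at 5.05, 3.97 and 5.97 FPKM, within 2-fold in tolerized cells.

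Of 5 measured dendritic cell genes, 2 were at least 2-fold higher and 1, Cd209a, was lower. The shares were 40% and 20%, against 8.08% and 16.8% of all genes, so the lower share was near that of all genes. Ccr7, which guides cells to lymph nodes, stood at 12.7 FPKM in naive, 32.8 in LPS and 58.4 in tolerized cells, and Bst2, which is also an interferon-stimulated gene, at 91.9, 429.5 and 651.9 FPKM. Flt3, Xcr1, Clec9a and Siglech, named after their values were seen, were under 1 FPKM in all 3 WT libraries. Zbtb46, a transcription factor that marks conventional dendritic cells, stood at 1.42, 2.00 and 2.29 FPKM, within 2-fold in tolerized cells. Itgax, an integrin chain that macrophages share, stood at 72.0, 45.6 and 51.8 FPKM.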
